A study of Mus musculus with 2 samples.

Results

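The mitochondrial respiratory chain passes electrons from NADH and succinate to oxygen through complexes I to IV, and ATP synthase, called complex V, uses the proton gradient they build to make ATP. Complexes I, III, IV and V are of mixed origin. A few hydrophobic core subunits are encoded by the mitochondrial genome and made on mitochondrial ribosomes, and the many other subunits are encoded in the nucleus, made in the cytosol and imported. In stratified epithelia such as the epidermis, these genes are expressed both in dividing basal progenitors and in the differentiating cells above them.

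The genes described here are the 13 protein-coding genes of mitochondrial DNA, whose symbols begin with mt-, and the nuclear genes whose symbols begin with Uqcr, Atp5, Nduf with a subunit letter, or Cox with a number from 4 to 8. The rule took 93 symbols of the 27998 listed genes, 13 mitochondrial and 80 nuclear. It used no measured value apart from a minimum level, although the genes were chosen with earlier results of these data known. All 13 mitochondrial genes and 77 of the nuclear genes had at least 20 unique molecular identifiers (UMIs, each a counted RNA molecule) over both libraries, as did 13184 genes in all. The 3 nuclear genes outside the minimum, *Cox7b2*, *Cox8b* and *Cox8c*, had 0 UMIs in both libraries. The lowest genes inside it were *Cox6a2*, with 21 control and 14 cKO UMIs, and *Cox7a1*, with 27 and 23. Of the 77 measured nuclear genes, 35 encode subunits of complex I, 8 of complex III, 15 of complex IV and 15 of complex V. The other 4, *Ndufa4l2*, *Cox7a2l*, *Atp5s* and *Atp5sl*, share a family name but are not counted as structural subunits here.

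Single cells were measured from back skin of E17 C57BL/6 embryos, in 1 control library (*Mettl3* fl/+, Rosa16-YFP fl/+, K14Cre) and 1 cKO library (*Mettl3* fl/fl, Rosa16-YFP fl/+, K14Cre). The reporter is written here as in the sample labels, and the paper's methods give its locus a different number. *Mettl3* encodes the enzyme that writes N6-methyladenosine on mRNA, and both libraries carried the Cre, which acts in keratin 14-expressing epidermal progenitors, and the YFP reporter. By its fl/+ genotype the control was heterozygous rather than wild type. Cells were sorted as YFP+, as negative for lineage markers, and on DAPI and the integrins α6 and β1, and the gate helps to set which cells were seen. The number of embryos behind each library was not given. With 1 library per genotype no test of the genotype was possible. Every interval below is a 95% interval for counting error alone, and no p-value is given.

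Barcodes with at least 1800 genes were kept, leaving 4447 in the control (43874554 UMIs, median 8941 per cell) and 3577 in the cKO library (34116275 UMIs, median 8581). *Mettl3* itself was counted 557 times in control and 211 times in cKO cells, or 12.7 and 6.18 CPM (UMIs scaled to the library total), and a 3′ tag also counts transcripts that lack the deleted exon. *Xist*, the RNA of the inactive X chromosome, was found in 99.8% of control cells and 0.028% of cKO cells, so genotype and sex cannot be told apart. The libraries had 16 cell barcodes in common. Basal, suprabasal, hair follicle (HF) WNThi, HF WNTlo and Merkel-like cells were named from marker genes after clustering without the respiratory chain genes, and 1039 control and 778 cKO cells had no name. Leading genes of the named clusters included *Krt14* and *Krt15* (basal), *Krt1* and *Krt10* (suprabasal), *Dkk4* and *Shh* (WNThi), *Pthlh* and *Krt79* (WNTlo) and *Krt8* and *Atoh1* (Merkel). *Shh* was also a leading gene of a WNTlo-like cluster with 252 control and 252 cKO cells, so it does not set the HF classes apart. Most unnamed cells lay in clusters that scored highest for basal markers but missed the limits for a name. These clusters had 394, 306 and 304 control cells and 296, 277 and 182 cKO cells, and they are in no class comparison below. The remaining unnamed cells were 1 cluster of 35 control and 23 cKO cells with melanocyte and fibroblast genes.

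Stretches of promoter from 4 genes are shown first because the largest differences among the abundant nuclear genes lay within complexes III and V. Each holds the bases from 170 before to 30 after the RefSeq transcription start on GRCm38.p6, written 5′ to 3′ on the gene's strand. Capitals mark matches, on either strand, to 3 short motifs of factors known to act on respiratory genes, GCGCANGCG for NRF1, CCGGAAG for ETS factors such as GABPA, and AAGATGG for YY1. *Uqcrc1* and *Atp5f1* had the lowest ratios of cKO to control, and *Uqcr10* and *Uqcrfs1* had the highest among genes with an entry.
*Uqcrc1*, chr9:108936478-108936677, plus strand: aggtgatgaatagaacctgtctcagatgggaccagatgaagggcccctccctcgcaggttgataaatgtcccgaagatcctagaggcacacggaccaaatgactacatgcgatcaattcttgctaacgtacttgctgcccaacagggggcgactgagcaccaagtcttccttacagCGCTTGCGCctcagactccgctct
*Atp5f1*, chr3:105959234-105959433, minus strand: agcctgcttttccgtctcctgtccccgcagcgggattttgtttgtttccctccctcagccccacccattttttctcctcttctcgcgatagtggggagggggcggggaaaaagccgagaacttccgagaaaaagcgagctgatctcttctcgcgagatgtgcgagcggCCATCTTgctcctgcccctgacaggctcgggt
*Uqcr10*, chr11:4704315-4704514, minus strand: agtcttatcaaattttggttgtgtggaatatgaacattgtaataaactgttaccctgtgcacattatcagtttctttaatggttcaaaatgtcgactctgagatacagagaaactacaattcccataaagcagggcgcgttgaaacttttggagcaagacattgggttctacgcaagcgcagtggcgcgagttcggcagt
*Uqcrfs1*, chr13:30545287-30545486, minus strand: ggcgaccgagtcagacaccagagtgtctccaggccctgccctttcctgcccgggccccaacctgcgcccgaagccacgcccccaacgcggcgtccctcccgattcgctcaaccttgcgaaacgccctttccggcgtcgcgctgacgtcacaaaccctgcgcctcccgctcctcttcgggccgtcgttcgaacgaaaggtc

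*Uqcrc1* held 1 match to the NRF1 letters in this stretch and 3, of which 2 overlap, in the full window of 300 bases, and *Atp5f1* held 1 match to the YY1 letters. The other two held none of the 3 motifs. RefSeq promoters were matched for 64 of the 77 measured nuclear genes. NRF1 letters were present in 28.1% of these 64 genes and in 7.03% of all 27025 genes with a window of this length, ETS letters in 21.9% and 9.93%, and YY1 letters in 18.8% and 7.28%. The 64 genes were all measured in these cells, while the 27025 were not limited to measured genes, so the shares are not of like sets. The 37 genes with any of the 3 motifs had a median log2 ratio of cKO to control of -0.01, and the 27 genes without had 0.02. Taken singly, medians with and without the letters were -0.017 and 0.025 for NRF1, 0.099 and -0.011 for ETS, and -0.013 and 0.018 for YY1. *Atp5k* and *Cox8a*, also among the genes with high ratios, held ETS letters, unlike *Uqcr10* and *Uqcrfs1*. A match is a run of letters and not a measured binding site.

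The 13 mitochondrial genes together took 4.90% of control UMIs and 5.36% of cKO UMIs, a ratio of 1.093 (interval 1.091 to 1.095). The measured nuclear genes took 3.43% and 3.52%, a ratio of 1.028 (1.025 to 1.030). On the log2 scale the median ratio was 0.14 over the mitochondrial genes and -0.01 over the nuclear genes, against 0.03 over all 13184 measured genes.

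All 13 mitochondrial genes had a ratio above 1, where 7069 of the 13184 measured genes did, although *mt-Co2* fell below 1 under 4 of 13 alternative settings. Of these settings, 2 changed only the gene minimum, which cannot move a single ratio. A gene is called higher here when its CPM is more than 25% above the control and lower when it is under 0.8 times the control. By this rule 4 mitochondrial genes were higher and 0 were lower (*mt-Nd3* lost its call with TMM scaling, the median of ratios and cells of at most 10% mitochondrial UMIs, and *mt-Nd1* gained one with cells of at least 1000 genes and with equal weight per class), while 19.6% of all measured genes were higher and 11.6% were lower. Among the nuclear genes 5 were higher and 2 were lower, which are smaller shares than those of all genes. This split was 3 and 3 with TMM scaling, 3 and 4 with the median of ratios and 7 and 3 with equal weight per cell class. Under some settings *Atp5k* (as low as 1.224) and *Cox8a* (1.225) lost their call, and *Ndufb10* (0.780) was called lower. All 7 nuclear genes called at the main scaling had at least 200 UMIs, and of all genes at that level 16.1% were higher and 7.4% lower.

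**Figure D1:**
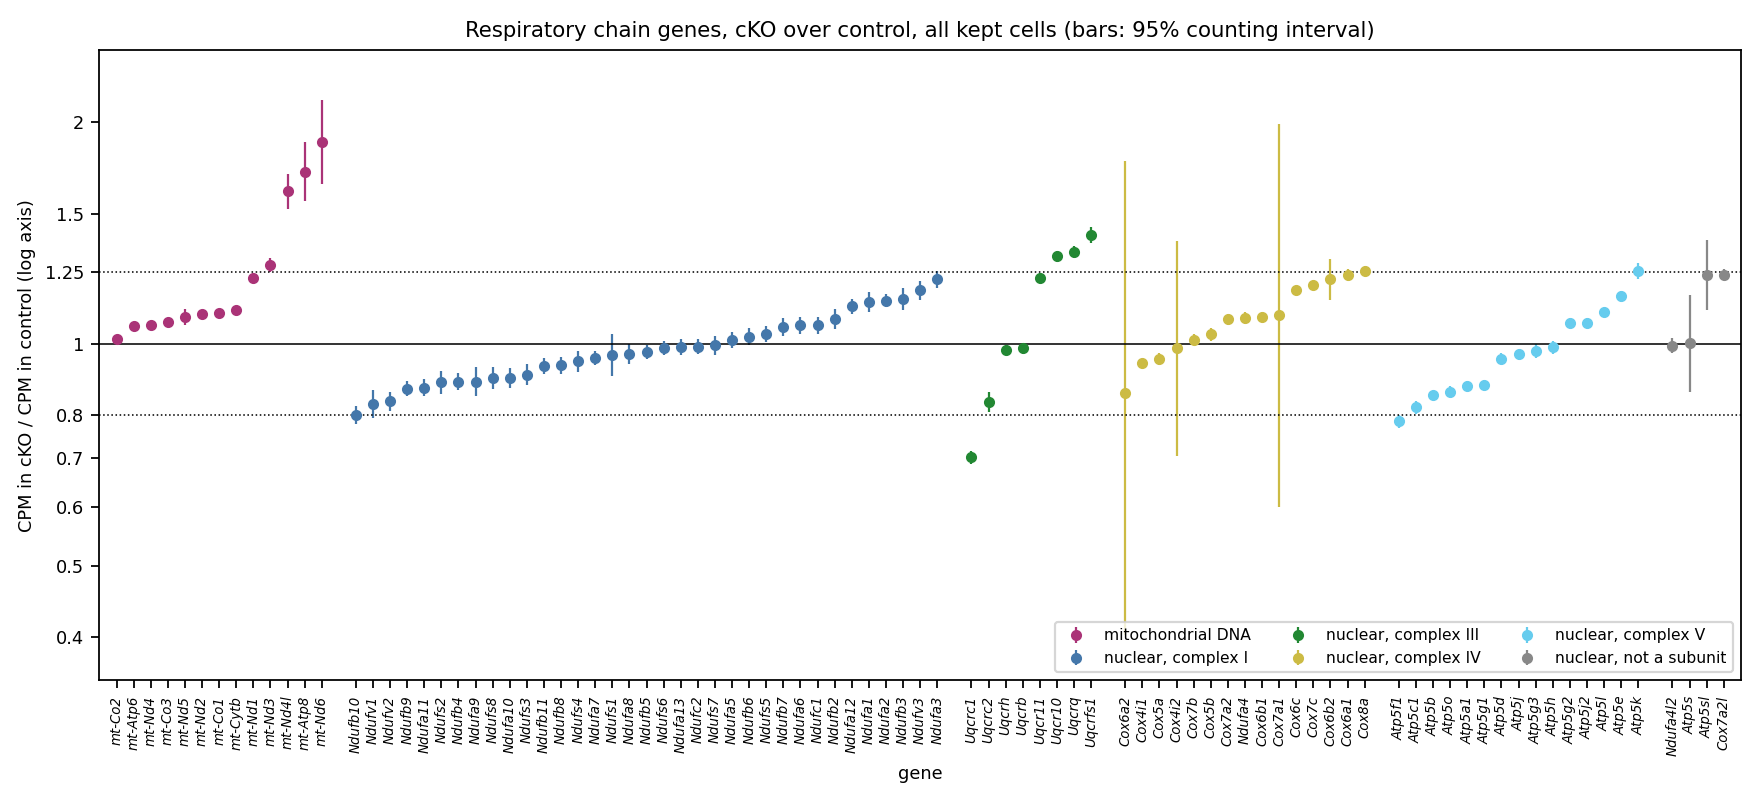
Ratio of cKO to control CPM for each measured respiratory chain gene over all kept cells, on a log axis, ordered within the mitochondrial genes and within each nuclear complex, with bars for the 95% counting interval and dotted lines at the 2 limits. All 13 mitochondrial genes lie above 1 at this scaling, from 1.014 for *mt-Co2* (below 1 under 4 alternatives) to 1.875 for *mt-Nd6*, and complex III spans from 0.702 for *Uqcrc1* to 1.403 for *Uqcrfs1*.

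The mitochondrial DNA gives 7 subunits of complex I, the membrane part that pumps protons. *mt-Nd1* was the most abundant of them, at 6122 CPM in the control and 7516 CPM in the cKO library, a ratio of 1.228 (1.221 to 1.234). *mt-Nd3* went from 403 to 515 CPM (ratio 1.278), *mt-Nd4l* from 55.2 to 88.9 CPM (1.609) and *mt-Nd6* from 8.96 to 16.8 CPM (1.875, interval 1.646 to 2.137). These last 3, with *mt-Atp8*, were the genes called higher, and *mt-Nd4l*, *mt-Nd6* and *mt-Atp8* had the fewest UMIs of the 13. The other 3 complex I genes lay closer to 1, with *mt-Nd2* at 1.096, *mt-Nd5* at 1.086 and *mt-Nd4* at 1.062. Complex I genes of mitochondrial origin summed to a ratio of 1.167 (1.162 to 1.171).

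*mt-Cytb*, the cytochrome b of complex III, was counted at 6188 CPM in the control and 6868 CPM in the cKO library, a ratio of 1.110. The catalytic subunits of complex IV were nearer to level, at 1.101 for *mt-Co1*, 1.069 for *mt-Co3* and 1.014 (1.008 to 1.021) for *mt-Co2*, and summed to 1.065. *mt-Atp6*, the proton channel subunit of complex V and the most abundant of all respiratory chain genes, had 11152 and 11777 CPM (1.056). Its neighbour *mt-Atp8* had 18.6 and 31.7 CPM (1.709, interval 1.559 to 1.874). *mt-Atp8* and *mt-Atp6* share 43 bases of mitochondrial DNA, *mt-Nd4l* and *mt-Nd4* share 7, and *mt-Nd6* lies on the opposite strand and overlaps *mt-Nd5* by 14, and the part of these overlaps in the values was not tested.

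Complex III held both ends of the nuclear range. *Uqcrc1*, a core protein of the matrix side, was counted at 567 CPM in the control and 398 CPM in the cKO library, a ratio of 0.702 (0.687 to 0.716). *Uqcrc2*, its partner core protein, went from 221 to 184 CPM (0.834, interval 0.807 to 0.861). Of the other subunits taken by the symbol rule, 4 lay above 1. *Uqcrfs1*, the Rieske iron-sulfur protein, had 263 CPM in the control and 369 CPM in the cKO library, a ratio of 1.403 (1.367 to 1.439). *Uqcrq* went from 488 to 650.5 CPM (1.333), *Uqcr10* from 628 to 825 CPM (1.314) and *Uqcr11* from 678 to 833 CPM (1.228), whereas *Uqcrb* (0.986) and *Uqcrh* (0.980) were near 1. Thus the core proteins summed to 0.739 (0.726 to 0.752) and the 5 small subunits to 1.142 (1.134 to 1.151), in a complex whose subunits assemble in equal numbers. *Cyc1*, the cytochrome c1 of this complex, lay outside the symbol rule and went from 258 to 211 CPM (0.815, interval 0.791 to 0.840).

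Complex V held 1 gene called higher and 1 called lower of 15, where 19.6% and 11.6% of all genes were. Its catalytic head, F1, summed to 0.924 (0.917 to 0.930). The β subunit *Atp5b* went from 1169 to 995 CPM (0.852), the α subunit *Atp5a1* from 798 to 699 CPM (0.876) and the γ rotor *Atp5c1* from 559 to 458 CPM (0.820), while the ε subunit *Atp5e* went from 672 to 779.5 CPM (1.160). In the stalks and membrane part, *Atp5f1*, the b subunit of the peripheral stalk, had 567 CPM in the control and 445 CPM in the cKO library (0.785, interval 0.769 to 0.801). *Atp5k*, the e subunit that helps ATP synthase pair into dimers, went from 270 to 339 CPM (1.255, interval 1.223 to 1.288), just past the limit for higher. Under other settings *Atp5k* ran from 1.224 to 1.264. The 10 genes of this part summed to 0.990.

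Complex I was the most level of the nuclear groups. None of its 35 genes was called in either direction at this scaling, where 19.6% of all genes were higher and 11.6% lower. Their sum had a ratio of 0.989 (0.985 to 0.994). The 7 core subunits, which carry the flavin and the iron-sulfur clusters, all lay below 1 and summed to 0.898 (0.887 to 0.911). *Ndufv1*, which binds NADH and the flavin, went from 117 to 97.2 CPM (0.829), *Ndufv2* from 251 to 210 CPM (0.835) and *Ndufs1* from 49.0 to 47.3 CPM (0.965, interval 0.904 to 1.030). The 28 accessory subunits, which surround the core, summed to 1.003 and were split, 13 above 1 and 15 below, and this sum moved to between 0.978 and 1.008 under other scalings. *Ndufb10* was the lowest of them, at 290 and 232 CPM (0.8003, just outside the limit for lower), and *Ndufa3* the highest, at 240 and 294 CPM (1.222). Under other settings *Ndufb10* ran from 0.780 to 0.824, and it was called lower in some. Within the 4 large cell classes the nuclear core summed to 0.872 to 0.936 and the mitochondrial core to 1.135 to 1.255, although 1 of the 7 nuclear core genes lay above 1 in basal-like and 2 in suprabasal-like cells.

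The nuclear genes of complex IV, which surround its mitochondrial core, summed to 1.099 (1.094 to 1.104) and 11 of 15 lay above 1. *Cox8a* went from 1026 to 1290 CPM (1.257, interval 1.240 to 1.273), *Cox6a1* from 582 to 721 CPM (1.239), *Cox7c* from 958 to 1151 CPM (1.201) and *Cox6c* from 1116 to 1318 CPM (1.181). *Cox4i1*, the largest nuclear subunit, went the other way, from 1475 to 1389 CPM (0.942), as did *Cox5a*, from 594 to 567 CPM (0.955). Outside the complexes, *Cox7a2l*, which shares a family name with the subunit gene *Cox7a2*, had 595 and 738 CPM (1.240, interval 1.218 to 1.261). The X-linked genes showed no common direction, with *Ndufa1* at 1.139, *Cox7b* at 1.013 and *Ndufb11* at 0.932.

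Across the nuclear genes the ratio went with gene structure. For the 74 with at least 200 UMIs, the log2 ratio and the number of exons had a Spearman correlation of -0.70 (Pearson -0.70 with log exons), where the same over 9955 genes gave -0.26. With coding length the Spearman correlation was -0.67 over the 74 genes and -0.02 over all genes. The 21 nuclear genes with 1 to 3 exons had a median log2 ratio of 0.20, the 33 with 4 or 5 exons had -0.01, and the 20 with 6 or more had -0.17. Medians over all genes in the same exon ranges were 0.25, 0.11 and -0.02. The points share 2 libraries and their totals, genes are not independent replicates, and exon number, coding length and the role of a subunit go together here. For example, *Uqcrfs1*, *Uqcrq*, *Uqcr10* and *Cox8a* have 2 exons each, while *Uqcrc1* has 13, *Uqcrc2* has 14 and *Atp5f1* has 8. *Ndufs1*, with 19 the gene of most exons in the set, had a log2 ratio of -0.05 and departs from the order, as does *Ndufb10* with 4 exons and -0.32.

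**Figure D2:**
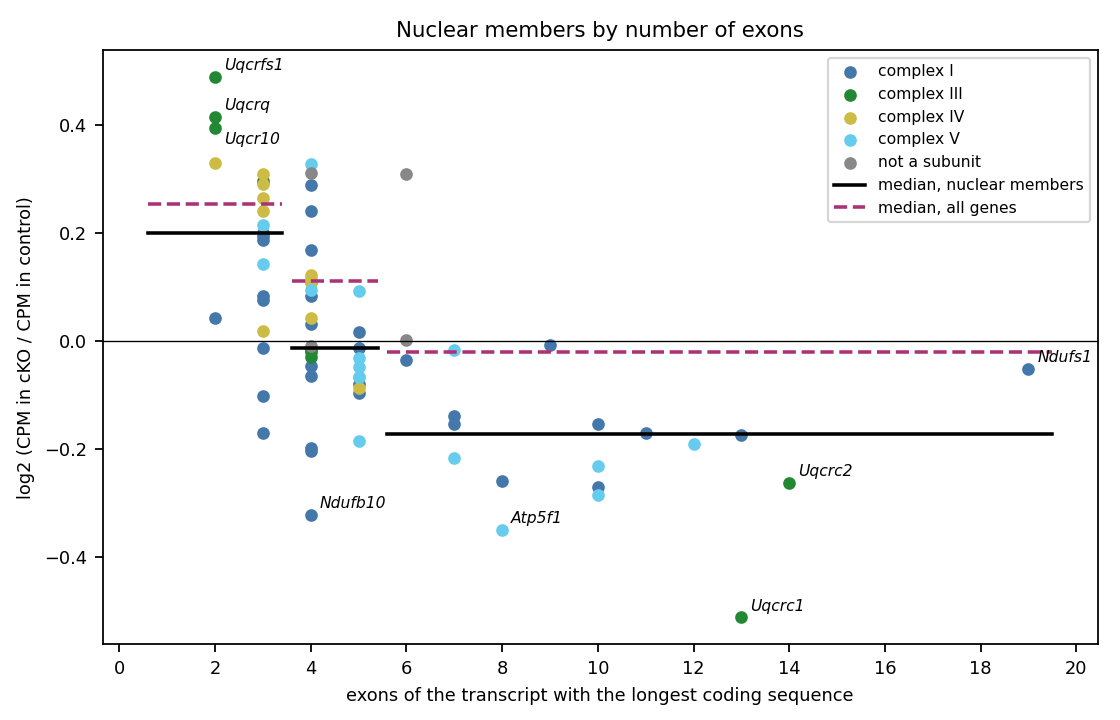
Log2 ratio of cKO to control CPM against the number of exons for the 74 nuclear genes with at least 200 UMIs, with points coloured by complex and horizontal lines for medians in 3 exon ranges, solid for these genes and dashed for all genes. The medians of the nuclear genes step from 0.20 to -0.01 to -0.17 as exons increase.

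The mitochondrial share of all UMIs varied with the number of genes in a barcode. In the control library the mitochondrial genes took 25.9% of UMIs in barcodes with 500 to under 1000 genes, 9.01% at 1400 to under 1800, 5.80% at 1800 to under 2500 and 4.03% at 3500 or more. The cKO library gave 24.4%, 9.62%, 6.41% and 4.22% in the same ranges, above the control in every range except the lowest. Within kept cells the share had a Spearman correlation with UMIs per cell of -0.43 in both libraries, as a description over 4447 and 3577 cells that share 1 library each. More cKO than control cells had over 10% mitochondrial UMIs, 211 cells (5.90%) against 134 (3.01%). When these cells were left out, the ratio of the mitochondrial sum was 1.065 in place of 1.093. The part of cell quality in this ratio was not tested.

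Nuclear respiratory genes went up as a share of all UMIs from 2.49% in the lowest to 3.44% in the highest control range. As a share of the UMIs that were not mitochondrial they stayed between 3.36% and 3.79% in all control ranges and between 3.59% and 3.998% in all cKO ranges. Barcodes with 10 to 100 UMIs, taken as free RNA, held 1.498% (control) and 2.07% (cKO) mitochondrial UMIs, below the share in every range of barcodes. Nuclear respiratory genes took 4.28% and 4.47% of their other UMIs, above the share in every range, although single cells reached such values, with a 95th percentile of 4.49% among control cells and 4.80% among cKO cells. The leading nuclear differences had the same direction there, in RNA of the same libraries, so these are not independent measurements. *Uqcrc1* had a ratio of 0.743 in free RNA and 0.716 in barcodes with 1000 to under 1800 genes, and *Uqcrfs1* had 1.477 and 1.510. In free RNA *Uqcr10* (1.340) and *Uqcrq* (1.323) also stayed past the limit for higher. *Cox8a* (1.210), *Atp5k* (1.198) and *Atp5f1* (0.801) lay within the limits in free RNA.

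**Figure D3:**
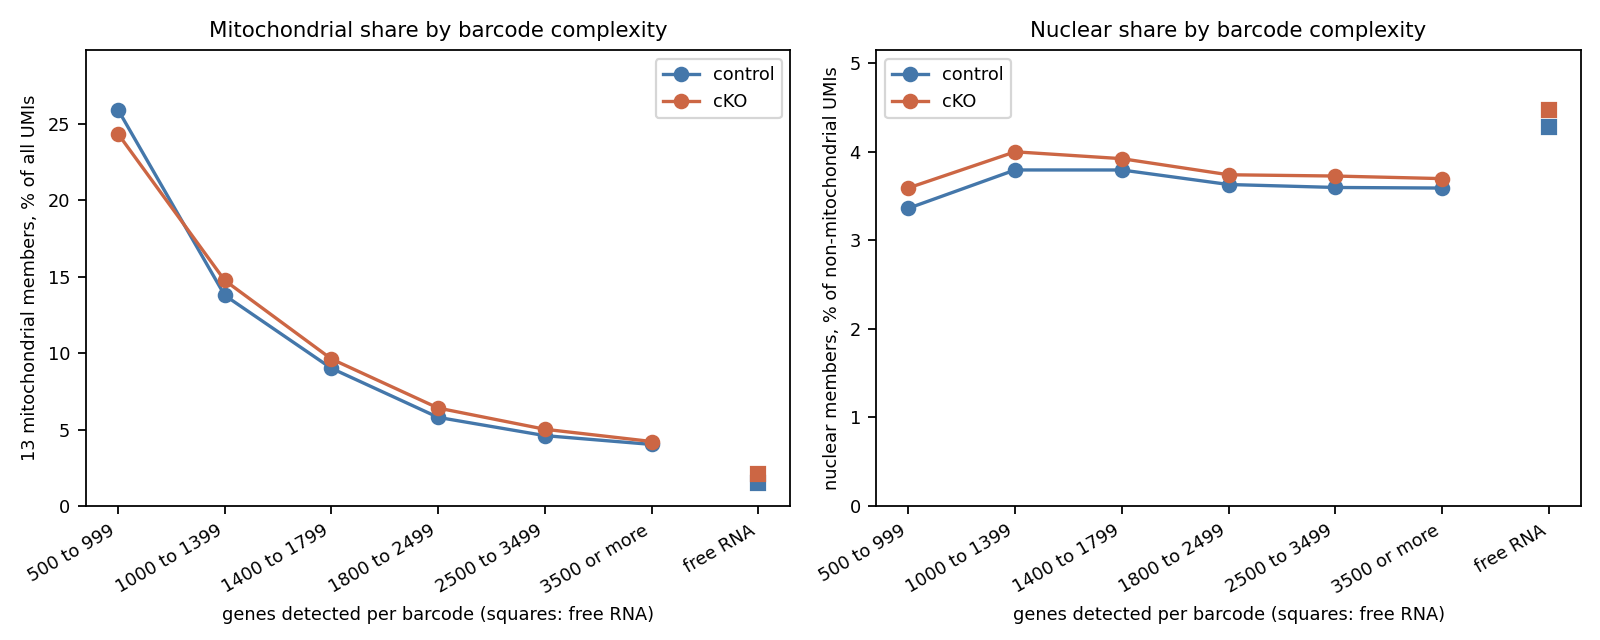
Share of UMIs from the mitochondrial genes (left) and share of UMIs other than mitochondrial from the nuclear genes (right), by genes detected per barcode, in the control and cKO libraries, with squares for free RNA. The mitochondrial share falls from 25.9% and 24.4% to 4.03% and 4.22%, while the nuclear share stays between 3.36% and 3.998% outside free RNA.

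The cell classes differed in both shares, and not in parallel. HF WNThi-like cells, the class with hair placode genes, had the highest mitochondrial share of the 4 large classes in both libraries, at 5.34% of control and 6.23% of cKO UMIs. They stood among the lowest for nuclear genes, at 3.11% and 3.17%. Epi basal-like cells had 4.93% and 5.24% mitochondrial with 3.59% and 3.73% nuclear. Epi suprabasal-like cells had 4.32% and 4.87% mitochondrial with 3.55% and 3.86% nuclear, and HF WNTlo-like cells 4.49% and 4.88% with 3.15% and 3.13%. Cells overlapped widely. In the control, WNThi-like cells ran from 4.36% to 6.16% mitochondrial between their quartiles and basal-like cells from 4.08% to 5.82%. Median UMIs per cell also differed, from 8201 in WNTlo-like to 10948 in suprabasal-like control cells.

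**Figure D4:**
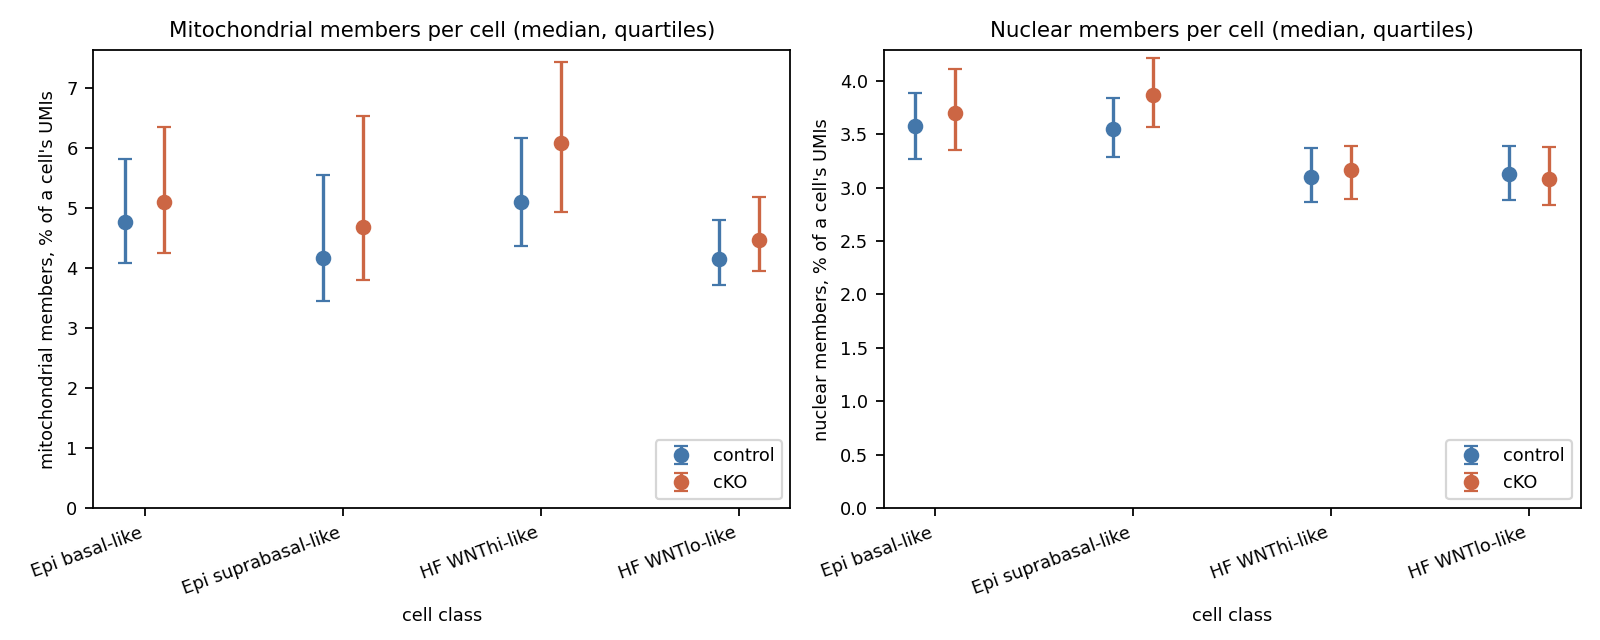
Share of a cell's UMIs from mitochondrial (left) and nuclear (right) respiratory chain genes in each of 4 cell classes and both libraries, with points for the median over cells and bars from the lower to the upper quartile. The HF WNThi-like medians are the highest for mitochondrial genes, 5.10% and 6.07%, and both HF classes lie below both epidermal classes for nuclear genes.

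Within classes the cKO to control ratio of the mitochondrial sum was 1.064 (1.060 to 1.067) in basal-like, 1.127 (1.121 to 1.134) in suprabasal-like, 1.166 (1.159 to 1.174) in WNThi-like and 1.087 (1.082 to 1.092) in WNTlo-like cells. The nuclear sum gave 1.040 (1.036 to 1.044), 1.088 (1.081 to 1.095), 1.019 (1.011 to 1.028) and 0.993 (0.988 to 0.999). The distance between the mitochondrial and the nuclear ratio was thus widest in WNThi-like and narrowest in basal-like cells. All mitochondrial genes lay above 1 in suprabasal-like, WNThi-like and WNTlo-like cells, and in basal-like cells 12 of 13 did, with *mt-Co2* at 0.994. Median depth was lower in cKO than in control cells of every class, with 7777 against 8376 UMIs in WNThi-like cells.

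Counts of nuclear genes past the limits were near or below the share of all genes in each class. Among basal-like cells 7 of 74 were higher and 3 lower, against 19.8% and 13.1% of all genes. Suprabasal-like cells had 13 of 75 higher and 1 lower, against 24.2% and 15.8%. In WNThi-like cells 7 of 74 were higher and 7 lower, against 23.3% and 17.6%, and in WNTlo-like cells 4 of 75 and 5, against 15.4% and 14.6%. *Uqcrc1* was the lowest nuclear gene with at least 200 UMIs in each of the 4 classes. Its levels in control and cKO cells were 659 and 485 CPM in basal-like cells (0.736), 551 and 382 CPM in suprabasal-like (0.693), 450 and 299 CPM in WNThi-like (0.665) and 431 and 317 CPM in WNTlo-like cells (0.735).

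*Atp5f1* was the second lowest in basal-like (0.790), WNThi-like (0.732) and WNTlo-like cells (0.790), and *Ndufv1* in suprabasal-like cells (0.825). At the upper end, *Uqcrfs1* was among the highest 2 in basal-like (1.429), suprabasal-like (1.441) and WNTlo-like cells (1.363). *Uqcr10* joined it in suprabasal-like cells (1.459), *Atp5k* in WNTlo-like cells (1.311), and *Uqcrq* (1.473) and *Uqcr10* (1.374) led in WNThi-like cells. *Atp5s*, which encodes a coupling factor B protein, led in basal-like cells at 1.467, but on 124 and 127 UMIs with an interval from 1.137 to 1.895. In the 36 and 29 Merkel-like cells the extremes at 200 UMIs or more, which 27 nuclear genes reached, were *Uqcr11* (1.551), *Atp5e* (1.469), *Atp5o* (0.773) and *Atp5c1* (0.817), with the intervals of the last 2 reaching past 1.

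Several genes with paralogs differed between cell classes in both libraries. *Ndufa4l2*, a hypoxia-responsive relative of the complex IV subunit *Ndufa4*, had 913 CPM in suprabasal-like and 280 CPM in basal-like control cells, and 794 and 296 CPM in the cKO library, so suprabasal over basal was 3.258 (3.129 to 3.392) and 2.685 (2.557 to 2.819). WNThi-like cells had the least, at 122 and 109 CPM, and WNTlo-like cells lay between, at 387 and 402 CPM. *Ndufa4* itself varied little, from 459 to 594 CPM over the 4 control classes. *Cox7a2l* ran the other way, with 301 CPM in suprabasal-like and 635 CPM in basal-like control cells (0.474), and 376 and 741 CPM in cKO cells (0.507), while *Cox7a2* had 768 and 697 CPM in the control.

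*Cox6b2*, known as a testis form of *Cox6b1*, was low, at 15.4 CPM in suprabasal-like and 51.8 CPM in basal-like control cells (0.298) and 19.4 and 62.55 CPM in cKO cells (0.310). *Cox6b1* had 853 and 818 CPM in the same control classes. The 3 genes that encode the same mature c subunit of ATP synthase differed as well. *Atp5g1* was highest in suprabasal-like cells, at 1072 CPM in the control, against 844 CPM in basal-like, 608 CPM in WNTlo-like and 557 CPM in WNThi-like cells. *Atp5g2* ranged only from 635 to 740 CPM over these classes, and *Atp5g3* from 356 to 466 CPM. Between the libraries *Atp5g1* had a ratio of 0.879, *Atp5g2* was at 1.067 and *Atp5g3* at 0.979.

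**Figure D5:**
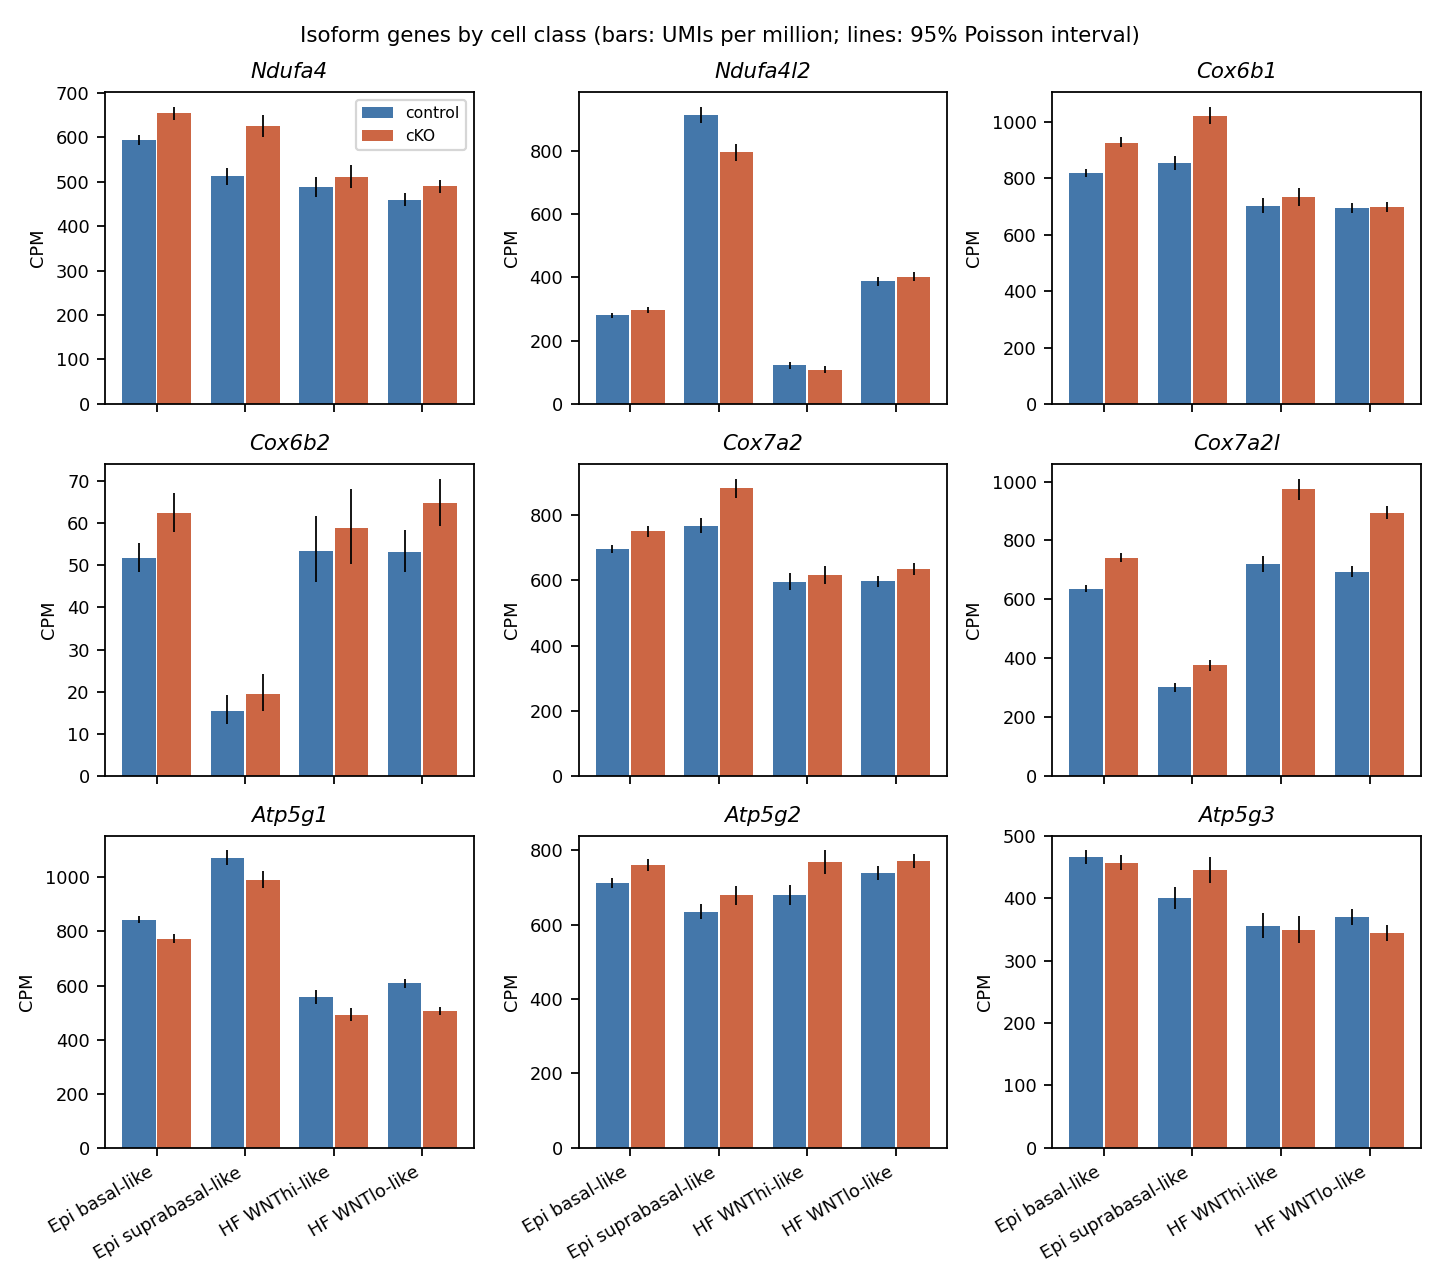
CPM of 9 genes with paralogs in 4 cell classes, with 1 bar per library and lines for the 95% Poisson interval. *Ndufa4l2* is highest in Epi suprabasal-like cells, at 913 and 794 CPM, where *Cox7a2l* and *Cox6b2* are lowest.

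The muscle and lung isoforms of complex IV were nearly absent. Of the 21 control UMIs of *Cox6a2*, a muscle form, 19 came from suprabasal-like cells, as did 12 of the 14 in the cKO library. *Cox4i2*, a lung form, had 86 and 66 UMIs, of which 34 and 27 came from WNTlo-like cells, and *Cox7a1*, another muscle form, had 27 and 23 UMIs spread over the classes. *Cox6a1*, by comparison, had 25542 and 24608 UMIs.

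Levels in the other classes were set against basal-like cells of the same library. Of 73 nuclear genes with at least 200 UMIs in each library, 15 were under 0.8 times the basal level in WNThi-like cells of both libraries and 0 were more than 25% over it, where all genes gave 10% and 9.73%. In WNTlo-like cells 16 were under and 2 over, where all genes gave 6.38% and 28.9%. Suprabasal-like cells had 3 under and 3 over, where all genes gave 19.5% and 15.8%. Genes under 0.8 in both HF classes of both libraries were *Uqcrc1*, *Uqcr10*, *Uqcr11* and *Uqcrq* of complex III, *Atp5g1*, *Atp5g3*, *Atp5k* and *Atp5o* of complex V, *Cox5b* of complex IV and *Ndufa5* of complex I. None of the 12 mitochondrial genes compared passed either limit in WNThi-like cells of both libraries, and of 13 in WNTlo-like cells only *mt-Nd6* did (0.713 for control and 0.441 for cKO cells).

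Genes outside the symbol rule, most of which serve the chain without being part of it, were read in the same cells. Mitochondrial ribosomal protein genes, which make the 13 mitochondrial proteins, summed to a ratio of 1.213 (1.207 to 1.219), with 28 of 76 higher and 0 lower, beside 19.6% and 11.6% of all measured genes, the shares against which each count below is read. Cytosolic ribosomal protein genes summed to 1.008, and to between 0.983 and 1.013 under other scalings, with 21 of 109 higher and 1 lower, near the share of all genes for higher. Assembly factors of the complexes summed to 1.254 (1.242 to 1.266), with 19 of 48 higher and 2 lower. *Coa7*, an assembly factor of complex IV, went from 16.9 to 44.3 CPM (2.629, interval 2.406 to 2.875), and *Ndufaf1*, one of complex I, from 22.8 to 46.6 CPM (2.047). *Tmem186* (0.663) and *Cox16* (0.710), which also serve complexes I and IV, were the lowest.

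Genes that maintain mitochondrial DNA and RNA had a sum of 1.055 with 7 of 31 higher, near the 19.6% of all genes, and 0 lower. *Mterf4*, needed for assembly of the mitochondrial ribosome, went from 21.04 to 46.2 CPM (2.196) and *Tefm*, the elongation factor of mitochondrial transcription, from 10.5 to 18.2 CPM (1.726), while *Hsd17b10*, a subunit of mitochondrial RNase P, was at 0.855 and *Dnaja3*, a chaperone, at 0.873. Among 9 regulators of respiratory genes, *Pprc1*, a coactivator of the PGC-1 family, went from 9.87 to 17.6 CPM (1.782) and *Esrra*, a nuclear receptor, from 14.7 to 11.6 CPM (0.792). At 200 UMIs or more, *Gabpb1* was next at 1.163 and *Yy1* at 0.923.

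Complex II with the mobile carriers, the citric acid cycle and glycolysis had sums below 1 over all kept cells. Complex II and the mobile carriers summed to 0.869 (0.859 to 0.880), with 1 of 20 higher and 3 lower, beside 19.6% and 11.6% of all genes. This list also held *Cyc1* of complex III, at 0.815. *Etfb*, which carries electrons from fatty acid oxidation, went from 149 to 109 CPM (0.733), *Coq10a* was at 0.680, *Pdss2* at 1.187 and *Coq10b* at 1.317. The citric acid cycle summed to 0.902 (0.891 to 0.912), with 0 of 17 higher and 1 lower, and ranged from *Suclg1* (0.794) and *Idh3g* (0.823) to *Ogdh* (1.104) and *Pdhx* (1.138). Glycolysis summed to 0.912 (0.906 to 0.918), with 4 of 20 higher, near the 19.6% of all genes, and 1 lower, and in basal-like cells its median log2 ratio was 0.10. Its ends were *Ldhb* (0.7996), *Pkm* (0.839), *Slc16a3* (1.557) and *Pgk1*, at 1.829 on only 154 and 219 UMIs. 

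Import, carrier and membrane organizing genes of both mitochondrial membranes summed to 1.045 with 8 of 30 higher and 1 lower, beside 19.6% and 11.6% of all genes. At 200 UMIs or more the lowest were *Phb* (0.778) and *Chchd3* (0.859) and the highest *Timm17a* (1.535) and *Tomm6* (1.593), and *Timm8a1* reached 2.686 on 139 UMIs. Mitochondrial stress response genes had 0 of 16 higher and 3 lower, beside the same shares of all genes, with a sum of 0.972. *Atf5* (0.704) and *Asns* (0.737), both of the integrated stress response, were the lowest, and the chaperone *Hspd1* (1.173) and the protease subunit *Clpp* (1.135) the highest at 200 UMIs or more, with *Trib3* at 1.236 on 100 UMIs. Antioxidant genes had 0 of 9 past either limit, from *Sod2* (0.868) and *Cat* (0.880) to *Gpx1* (1.047) and *Txnrd2* (1.202), and summed to 0.936.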

How the data were processed

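UMI counts per gene and barcode were deposited by the authors for 1 control and 1 cKO library. The authors made these counts with Cell Ranger on mm10 (version 2.0 in the submitters' processing notes, a later one in the methods, annotation release not stated). The deposited matrices list barcodes before any cell filter, and no normalization had been applied. The genes, lists and class markers were chosen with earlier results of these data known.

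Barcodes with at least 1800 genes were kept. Scanpy 1.11.5 clustered them on 2000 variable genes, without respiratory chain and sex genes, after centring within library and regressing out mitochondrial share and cell cycle. Leiden used 10 principal components, 20 neighbours and resolution 0.8, and the score limits for class names were set after clusters had been seen. Scrublet marked 6 control and 3 cKO cells, under 0.5%, so it had not worked, and leaving out the top 4% of scores served as an alternative.

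UMIs were summed per library or class and scaled to CPM. Ratios carry exact conditional binomial intervals. They were tested only on counts simulated with the same counting error and no variation between cells, so the test does not speak to such variation. UMIs removed amplification copies, and intervals cover counting error only. Levels are 3′ tags and were not compared per length. Processed pseudogenes and nuclear copies of mitochondrial DNA may share reads with these genes. Exons came from GENCODE vM21, from the transcript with the longest coding sequence. Scaling alternatives used TMM (edgeR 4.0.16) and the median of ratios. Named genes are all mitochondrial genes, the nuclear genes at both ends of the ratio (6 each way, minimum 200 UMIs), 2 each way per class and per further list, paralog pairs, X-linked genes and those nearest the minimum of 20 UMIs. Other genes named within a complex, those counted in HF classes, *Timm8a1* and *Trib3* were chosen after their values were seen.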

Additional observations from a re-analysis of the deposited data

How the results depend on the processing

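No paired analysis was possible because each group has 1 library, and leaving out a replicate was not possible for the same reason. The mitochondrial sum stayed above 1 under each of 13 alternatives. Of these, 2 changed only the gene minimum (at least 200 UMIs, or none) and could not move a sum or the ratio of a single gene. Its ratio was 1.098 with totals without mitochondrial genes and also without ribosomal protein and the 50 most abundant genes, 1.067 with TMM, 1.066 with the median of ratios, 1.138 with cells of at least 1000 genes, 1.075 with at least 2500 genes, 1.065 with at most 10% mitochondrial UMIs, 1.101 with equal weight per cell, 1.088 after subtraction of 5% free RNA and 1.112 with equal weight per cell class. The median log2 ratio of the mitochondrial genes was 0.10 with TMM (0.1045), 0.102 with the median of ratios, 0.1956 with at least 1000 genes, 0.1256 with at least 2500 genes, 0.1021 with at most 10% mitochondrial UMIs and 0.1787 with equal weight per class. The nuclear sum was 1.033 with both reduced totals, 1.004 with TMM, 1.002 with the median of ratios and 1.037 with equal weight per class. The nuclear median log2 ratio was -0.05 with the median of ratios. The 5 nuclear genes called higher became 3 with TMM, 3 with the median of ratios and 7 with equal weight per class, and the 2 called lower became 4 with the median of ratios and 5 with cells of at least 2500 genes. Clustering without centring gave mitochondrial ratios of 1.048 in basal-like, 1.134 in WNThi-like and 1.108 in WNTlo-like cells, and clustering without regression gave 1.124 in WNThi-like cells. The causes were not tested. Of 25 named genes, 24 kept their side of 1 under all 13 alternatives, including the 2 that could not move a ratio. The exception was *mt-Co2*, at 0.987 to 1.055.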
